A study of Mus musculus with 24 samples.

Results

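Myosin light chains and the kinases that phosphorylate them were followed across optically exercised muscle. The 10 genes were taken by symbol (Myl1, Myl2, Myl3, Myl4, Myl6, Myl6b, Myl9, Mylpf, which is also named Myl11, Mylk, and Mylk2) from the 56941 genes of the gene tables. All 10 were found, and 9 of them, all but Myl3, passed the filter on low counts that left 13318 genes for testing. RNA came from C2C12 cells, a single mouse myoblast line, of genotype ChR2::tdTomato, so that every tissue, control included, carried the light-gated channel channelrhodopsin. Cells were cast as 2D sheets on fibrin hydrogel, differentiated in horse serum with IGF-1, and lysed after about 2 weeks. Tissues were left unstimulated (control) or received 30 min of light per day at 1, 4, or 10 Hz, with 6 libraries per condition and 24 in total. No motor neuron or whole muscle was present, and the label calls the cells myoblasts although they had been differentiated. A gene was counted as higher or lower when the edgeR quasi-likelihood test gave both an adjusted p under 0.05 and a log2 fold change beyond 0.5. The methods describe the 6 libraries of a condition as biological replicates, that is, tissues of separate wells grown from the same cell line, so that p-values measure the spread between such tissues.

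Each myosin heavy chain carries an essential and a regulatory light chain along the lever arm behind its motor domain. In fast skeletal fibers these are the products of Myl1 (essential) and Mylpf (regulatory), in slow fibers and ventricle those of Myl3 and Myl2, and Myl4 is the essential chain of atrium and of embryonic skeletal muscle. Myl6, Myl6b, and Myl9 are the chains of nonmuscle and smooth muscle myosin, of which Myl6b is also made in slow muscle. Calcium-bound calmodulin switches on the kinases that phosphorylate the regulatory chain, Mylk in smooth muscle and nonmuscle cells and Mylk2 in skeletal fibers, where phosphorylation raises force at a given calcium level.

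The members lie on 8 chromosomes (GRCm39, GENCODE M39 annotation). Myl6 (chr10:128320267-128330014) and Myl6b (chr10:128330020-128334772) are neighbors on the minus strand, with Myl6b upstream. The fast chain Mylpf (chr7:126807207-126813470, plus strand) and the slow chain Myl2 (chr5:122238848-122251545, plus strand) each have 7 exons in the canonical transcript. Mylk (chr16:34565580-34822790, plus strand) has 32 exons, against 12 in Mylk2 (chr2:152753232-152766628, plus strand). The 250 bases before the canonical start are shown for the fast and slow regulatory chains and for both kinases, since the results turn on these genes and their windows hold no annotated exon of their gene. They are read along the gene's strand, and capitals mark E-boxes (the motif CANNTG, bound by myogenic regulatory factors), which read as CANNTG on either strand.
Mylpf: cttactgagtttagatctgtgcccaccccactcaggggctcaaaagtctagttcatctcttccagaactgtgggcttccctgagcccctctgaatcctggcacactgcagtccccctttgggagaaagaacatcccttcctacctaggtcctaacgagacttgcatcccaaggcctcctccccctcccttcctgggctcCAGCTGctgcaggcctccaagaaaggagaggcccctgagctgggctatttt
Myl2: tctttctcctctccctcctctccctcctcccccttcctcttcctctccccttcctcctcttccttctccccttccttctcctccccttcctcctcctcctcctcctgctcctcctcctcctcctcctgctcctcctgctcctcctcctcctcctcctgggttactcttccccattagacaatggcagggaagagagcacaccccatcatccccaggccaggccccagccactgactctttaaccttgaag
Mylk: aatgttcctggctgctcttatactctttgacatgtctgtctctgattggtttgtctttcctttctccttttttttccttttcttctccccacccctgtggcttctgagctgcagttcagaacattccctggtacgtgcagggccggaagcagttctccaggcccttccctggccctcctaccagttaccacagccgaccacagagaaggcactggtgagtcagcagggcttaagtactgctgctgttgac
Mylk2: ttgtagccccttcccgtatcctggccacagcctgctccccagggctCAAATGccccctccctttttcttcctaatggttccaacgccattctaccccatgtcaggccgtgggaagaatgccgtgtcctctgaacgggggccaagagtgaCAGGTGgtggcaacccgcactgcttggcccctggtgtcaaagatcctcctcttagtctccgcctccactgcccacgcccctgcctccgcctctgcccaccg
These windows span chr7:126810530-126810779 for Mylpf, chr5:122238598-122238847 for Myl2, chr16:34605041-34605290 for Mylk, and chr2:152752982-152753231 for Mylk2. Those of Mylpf and Mylk lie inside the annotated span of their gene. Mylpf held 1 E-box, 51 bases before the start, and Mylk2 held 2, at 204 and 101 bases before it. Myl2 and Mylk held none. Over the 10 members 8 windows held an E-box, against 64.8% of the windows of 21757 protein-coding genes. The windows of Myl1, Myl3, Myl4, and Myl6 hold 193, 171, 180, and 182 bases of exons of other transcripts of their gene. A MEF2 site was found in 0 member windows, against 2.79% of all windows, and a CArG box in 1 (Myl3, 48 bases before the start), against 1.4%. Of the 6 genes counted as higher at 1 and 4 Hz, Myl2 and Mylk had no E-box in this window, and Mylk2, Myl6, and Myl9, which were not counted there, each had at least 1. Whether an E-box in this window bears on these changes was not tested.

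Total counts ranged from 4.09 to 15.2 M per library. By condition they were 4.19 to 7.65 M in control, 4.09 to 15.2 M at 1 Hz, 7.55 to 11.5 M at 4 Hz, and 5.41 to 12.1 M at 10 Hz. Genes marking skeletal muscle fibers (Ckm, Acta1, Ttn, and 5 others) summed to 6487 to 14240 CPM (counts relative to library size) per library, against 22.8 to 48.0 CPM for genes marking undifferentiated or cycling myoblasts. Libraries differed in a second respect. Small RNAs without a poly(A) tail (20 symbols) summed to 98.4 to 169 CPM in control, 15.03 to 70.2 at 1 Hz, 18.3 to 51.1 at 4 Hz, and 38.4 to 272 at 10 Hz, so that 1 and 4 Hz libraries did not overlap the control libraries. The labels say that samples of low input were ribodepleted and do not name them. This share and stimulation at 1 or 4 Hz cannot be told apart in these samples, and values with the share as a covariate are given below.

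The light chains spanned more than 3 orders of magnitude on the TPM scale, which divides counts by transcript length and library size. Mean TPM over the 24 libraries was 5494 for Myl1 and 4758 for Mylpf, which ranked 12 and 15 among all genes. Myl6 (1419 TPM) and Myl4 (1408 TPM) followed, then Myl6b (218 TPM) and Myl2 (51.5 TPM). Mylk2 (8.06 TPM), Myl9 (3.89 TPM), Myl3 (1.71 TPM), and Mylk (1.51 TPM) were the lowest. In control tissues library ranges of neighbors in this order were separate from Myl1 down to the step from Myl9 to Myl3, and they overlapped between Myl3 and Mylk. Myl6 stood above Myl4 in control, whereas at 1 and 4 Hz Myl4 had the higher mean TPM and their ranges overlapped. Myl1 and Mylpf also overlapped at 1, 4, and 10 Hz. The members made up 1.03 ± 0.0651% of all TPM in control, 1.46 ± 0.0985% at 1 Hz, 1.63 ± 0.172% at 4 Hz, and 1.22 ± 0.188% at 10 Hz (SD, n = 6).

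**Figure D1:**
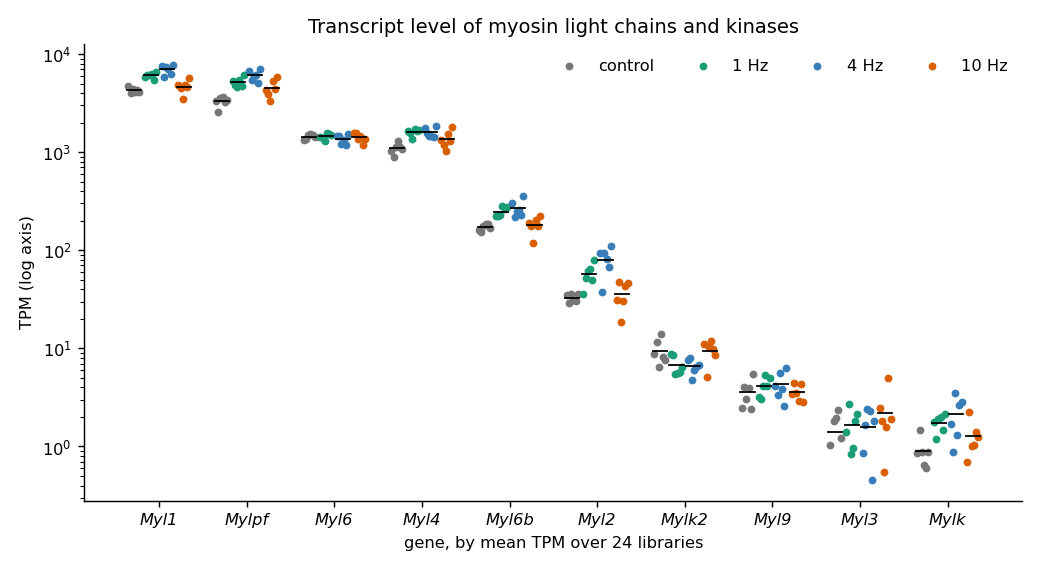
Level of each member in each library, in TPM on a log axis, with genes ordered by mean TPM over 24 libraries, 4 conditions side by side, and black lines at the condition means (n = 6). Myl1 (mean 5494 TPM) and Mylpf (4758 TPM) stood highest and Mylk (1.51 TPM) lowest; Myl3 in control replicate 2 was at 0 and is not drawn.

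Mylpf, the fast regulatory chain, was higher than control at all 3 frequencies. Its CPM, scaled by TMM to even out RNA makeup between libraries, was (lowest, median, highest library) 1001, 1379, and 1535 in control, 2014, 2146, and 2818 at 1 Hz, 2392, 2861, and 3510 at 4 Hz, and 1439, 1921, and 2587 at 10 Hz. Every 1 and 4 Hz library lay above every control library, while at 10 Hz 5 of 6 did. Mylpf rose 1.67-fold at 1 Hz (log2 fold change 0.74, SE 0.13, adjusted p = 0.000136), 2.14-fold at 4 Hz (1.10, SE 0.13, adjusted p = 8.95e-07), and 1.49-fold at 10 Hz (0.57, SE 0.13, adjusted p = 0.0106). The 10 Hz call rested on 1 library, since without 10 Hz replicate 6 the log2 fold change was 0.49, under the fold threshold of 0.5. On the TPM scale it was 0.44, where the median of all genes was -0.09 to -0.10 in the filtered fits. In bulk RNA, more fibers and more Mylpf RNA per fiber cannot be told apart, which holds for each gene below.

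Myl2, the slow and cardiac regulatory chain, had the largest log2 fold change of the 7 tested light chains at 4 Hz. Its CPM (lowest, median, highest) was 7.88, 11.6, and 12.9 in control, 12.7, 20.2, and 30.3 at 1 Hz, 14.7, 34.1, and 46.4 at 4 Hz, and 6.88, 13.9, and 17.1 at 10 Hz. All 4 Hz libraries lay above control, 5 of 6 did at 1 Hz, and the 10 Hz libraries overlapped control on both sides. Myl2 rose 1.89-fold at 1 Hz (log2 fold change 0.92, SE 0.24, adjusted p = 0.00408) and 2.89-fold at 4 Hz (1.53, SE 0.23, adjusted p = 1.68e-05). At 10 Hz the log2 fold change was 0.24, with an interval (95%) of -0.26 to 0.74 (adjusted p = 0.623). Myl2 was low in absolute terms, with 47 to 470 estimated counts per library.

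Myl9, the regulatory chain of smooth muscle myosin, passed no test. Its CPM (lowest, median, highest) was 1.31, 2.11, and 3.56 in control, 0.986, 2.85, and 3.81 at 1 Hz, 1.91, 3.115, and 5.03 at 4 Hz, and 2.01, 2.20, and 2.50 at 10 Hz. The conditions overlapped throughout. Its log2 fold change against control was 0.29 at 1 Hz (interval -0.32 to 0.89, adjusted p = 0.472), 0.57 at 4 Hz (-0.01 to 1.16, 0.112), and 0.03 at 10 Hz (-0.58 to 0.64, 0.968). With 4 to 51 estimated counts per library, the 4 Hz interval takes in both no change and the 1.10 seen for Mylpf. Myl9 also shares 169 bases with the antisense RNA 5730471H19Rik, whose summed count was 29.9% of that of Myl9, and whether the counting used strand is not given in the sources used here.

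Myl1, the fast essential chain and the most abundant member, rose at 1 and 4 Hz. Its CPM (lowest, median, highest) was 1419, 1616, and 1872 in control, 2110, 2451, and 2758 at 1 Hz, 2395, 3172, and 3440 at 4 Hz, and 1452, 1972, and 2364 at 10 Hz. Both lower frequencies were clear of control, and 5 of 6 libraries at 10 Hz were above it. Myl1 rose 1.48-fold at 1 Hz (log2 fold change 0.56, SE 0.10, adjusted p = 0.000167) and 1.85-fold at 4 Hz (0.89, SE 0.10, adjusted p = 5.95e-07), and at 10 Hz the log2 fold change was 0.25 (interval 0.04 to 0.45, adjusted p = 0.154). Scaling by total count put the 1 Hz value at 0.49, under the fold threshold, where the median of all genes was -0.08. The pseudogene Mylf-ps, identical to Myl1 at 99.3% of 421 aligned bases, took 0.843% as many counts as Myl1.

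Myl4, the embryonic and atrial essential chain, rose at 1 and 4 Hz. Its CPM (lowest, median, highest) was 435, 576, and 698 in control, 741, 873, and 960 at 1 Hz, 835, 890, and 1134 at 4 Hz, and 584, 743, and 1002 at 10 Hz. Control was below every 1 and 4 Hz library, and 4 of 6 libraries at 10 Hz were above control. Myl4 rose 1.52-fold at 1 Hz (log2 fold change 0.60, SE 0.12, adjusted p = 0.000336) and 1.66-fold at 4 Hz (0.73, SE 0.12, adjusted p = 3.23e-05). At 10 Hz it passed the adjusted p but not the fold threshold (0.43, SE 0.12, adjusted p = 0.0309), a rule met by 4.89% of all genes.

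Myl6b and Myl6, the neighboring genes on chromosome 10, are set side by side here. Myl6b CPM (lowest, median, highest) was 85.5, 105, and 113 in control, 135, 152, and 182 at 1 Hz, 142, 173, and 254 at 4 Hz, and 76.1, 120, and 143 at 10 Hz. Myl6b was above control in every 1 and 4 Hz library, with log2 fold changes of 0.60 at 1 Hz (SE 0.14, adjusted p = 0.00146) and 0.85 at 4 Hz (SE 0.14, adjusted p = 3.42e-05). At 10 Hz it was 0.19 (interval -0.09 to 0.47, adjusted p = 0.468). Myl6, the essential chain of nonmuscle and smooth muscle myosin, ran from 460, 520, and 572 CPM in control to 487, 555, and 625 at 1 Hz, 515, 585, and 709 at 4 Hz, and 476, 578, and 622 at 10 Hz. Its conditions overlapped throughout. The Myl6 log2 fold change was 0.10 at 1 Hz (interval -0.08 to 0.28, adjusted p = 0.411), 0.19 at 4 Hz (0.01 to 0.36, 0.0929), and 0.12 at 10 Hz (-0.06 to 0.30, 0.463), and on the TPM scale its sign turned to -0.08 at 4 Hz and -0.04 at 10 Hz. All 3 intervals lie below the fold threshold of 0.5. The difference between Myl6b and Myl6 was not tested. Their transcripts align over 152 bases at 90.1% identity. Pseudogene copies of Myl6 each took at most 0.163% as many counts as Myl6. The noncoding RNA Gm69535 and an unnamed one align to Myl6 at 99.5% identity over 551 and 554 bases. They are not in the gene tables, so their counts are not known. Myl6b shares 187 bases with the antisense RNA A430046D13Rik, whose summed count was 3.72% of that of Myl6b.

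Myl3, the slow and ventricular essential chain, was near the limit of detection, with 0 to 18 estimated counts per library. In control replicate 2 it had 0 counts, which allows up to 0.543 CPM (3 counts) and covers counting error only. Its CPM ran from 0 to 1.02 in control, 0.477 to 1.48 at 1 Hz, 0.273 to 1.44 at 4 Hz, and 0.313 to 1.84 at 10 Hz, so that all conditions overlapped. Without the filter on low counts its log2 fold changes were 0.41, 0.69, and 0.70 at 1, 4, and 10 Hz (adjusted p = 0.687, 0.387, and 0.584). Between frequencies they were 0.29 for 4 Hz against 1 Hz, 0.30 for 10 Hz against 1 Hz, and 0.01 for 10 Hz against 4 Hz (adjusted p = 0.870, 0.742, and 1).

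The kinases are given in turn. Mylk, the smooth muscle and nonmuscle kinase, had CPM (lowest, median, highest) of 2.84, 3.51, and 5.37 in control, 6.41, 9.42, and 12.4 at 1 Hz, 4.99, 8.78, and 11.9 at 4 Hz, and 3.79, 5.75, and 7.37 at 10 Hz. All 1 Hz libraries and 5 of 6 at both 4 and 10 Hz were above control. Mylk rose 2.48-fold at 1 Hz (log2 fold change 1.31, SE 0.21, adjusted p = 6.14e-05) and 2.20-fold at 4 Hz (1.14, SE 0.21, adjusted p = 0.000167). At 10 Hz the value was 0.59 (interval 0.14 to 1.04, adjusted p = 0.117). On the TPM scale without a filter the 1 Hz value missed the adjusted p (0.54, adjusted p = 0.0863). These rest on 14 to 135 estimated counts per library.

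Mylk2, the skeletal muscle kinase, was not counted against control at any frequency. Its CPM (lowest, median, highest) was 13.2, 16.7, and 26.9 in control, 10.97, 12.5, and 17.2 at 1 Hz, 10.5, 14.7, and 17.3 at 4 Hz, and 10.8, 20.4, and 25.5 at 10 Hz. Its 1 and 4 Hz medians lay below the control median, with overlapping libraries. The log2 fold change was -0.46 at 1 Hz (interval -0.84 to -0.07, adjusted p = 0.0606), -0.33 at 4 Hz (-0.71 to 0.05, 0.154), and 0.10 at 10 Hz (-0.27 to 0.48, 0.809). That Mylk2 was not counted at 1 Hz depended on single libraries. Without control replicate 3 or 6, or 1 Hz replicate 1 or 2, Mylk2 passed as lower (log2 fold change -0.51 to -0.54). It also passed with scaling by total count (-0.54, adjusted p = 0.0331), where the median of all genes was -0.08.

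**Figure D2:**
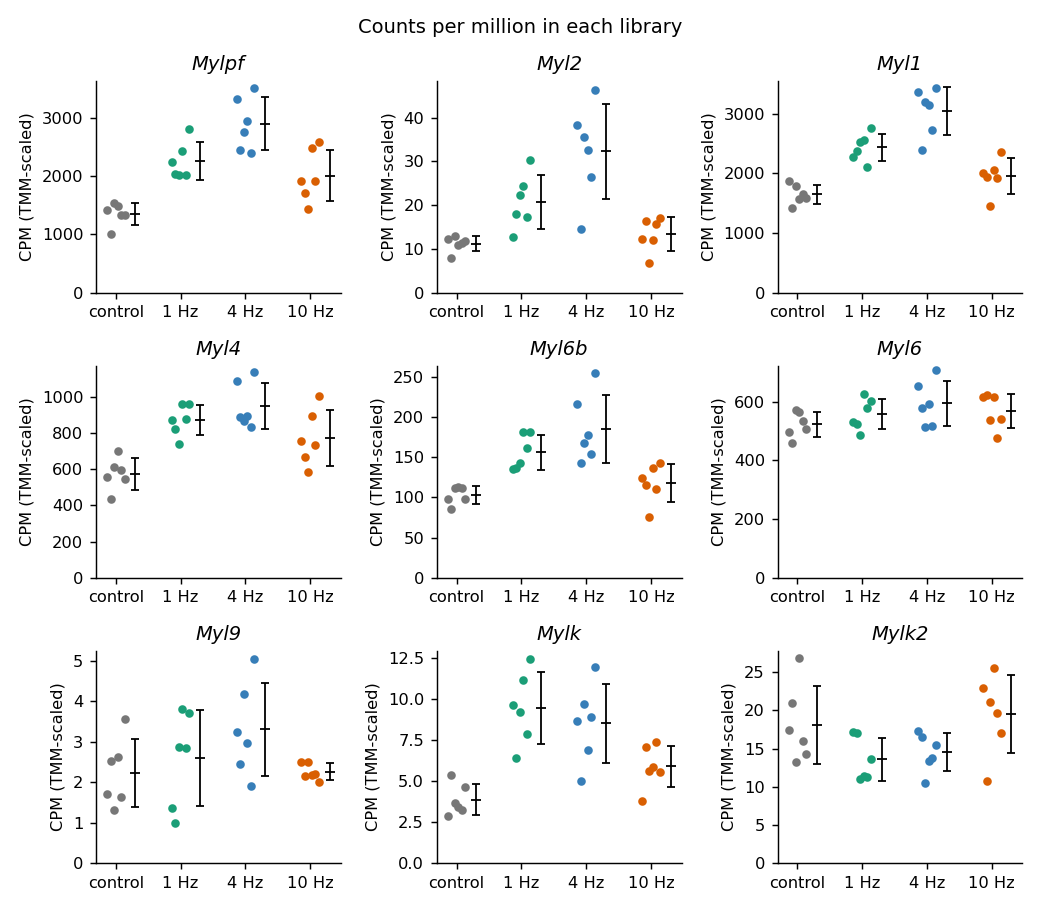
CPM of the 9 tested members in each of 24 libraries, by condition, on TMM-scaled library sizes with axes from 0; points are libraries, and the bar beside them is the mean with SD (n = 6). Mylpf control libraries lay at 1001 to 1535 CPM and 4 Hz libraries at 2392 to 3510, while Myl6 overlapped in all conditions.

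Read across genes, 1 Hz counted 6 members as higher and 0 as lower, where 9.34% of all tested genes were counted as higher and 18.3% in either direction. The 6 were Mylpf, Myl2, Myl1, Myl4, Myl6b, and Mylk. At 4 Hz the same 6 genes were higher and 0 lower (10.5% of all genes higher, 20.1% either way). At 10 Hz Mylpf alone was counted (1.24% of all genes higher, 1.86% either way). The median log2 fold change of the 9 tested members was 0.60, 0.85, and 0.24 at 1, 4, and 10 Hz, where that of all tested genes was -0.01, -0.01, and -0.01. Libraries did not overlap control for 5 members at 1 Hz (13.1% of all genes) and for 5 at 4 Hz (16.6%), against 0 at 10 Hz (2.58%). The 3 comparisons share the control libraries. With scaling by total count the median of all genes was -0.08, -0.11, and -0.04 at 1, 4, and 10 Hz. In the filtered TPM fits it was -0.06 at 1 Hz, -0.16 to -0.18 at 4 Hz, and -0.09 to -0.10 at 10 Hz. The same TPM fits gave -0.10 to -0.12 for 4 Hz against 1 Hz. Member values on those scales are read against these medians.

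**Figure D3:**
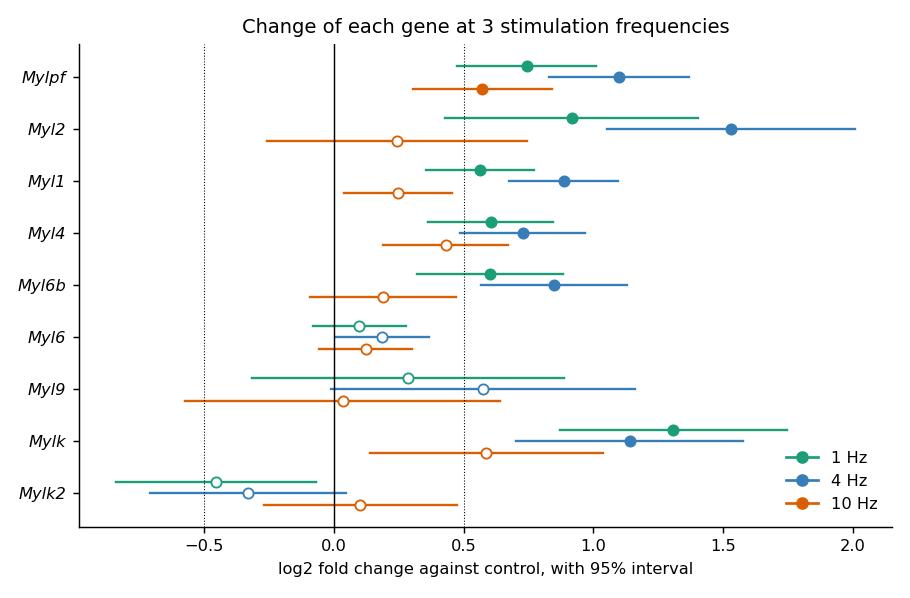
Log2 fold change of each tested member against control at 1, 4, and 10 Hz, with 95% intervals; filled points were counted (adjusted p below 0.05 and a change above 0.5, the dotted lines), open points were not. The 6 genes Mylpf (0.74 and 1.10), Myl2, Myl1, Myl4, Myl6b, and Mylk (1.31 and 1.14) have filled points at 1 and 4 Hz, and at 10 Hz Mylpf alone (0.57).

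With the small RNA share as a covariate, the same contrasts counted 0 members at 1 Hz (0.00751% of all genes) and 2 at 4 Hz, Myl1 and Mylpf (1.88%), and 1 at 10 Hz, Mylpf (1.52%). Their log2 fold changes at 4 Hz were then 0.76 (SE 0.16) for Myl1 and 0.88 (SE 0.20) for Mylpf. At 1 Hz the values of the 6 members ran from 0.38 (Myl6b, SE 0.22) to 1.24 (Mylk, SE 0.34), with adjusted p from 0.168 to 0.618. All 9 signs against control were kept. Since the share does not overlap between control and 1 or 4 Hz, its part in the fold changes was not tested apart from stimulation.

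**Figure D4:**
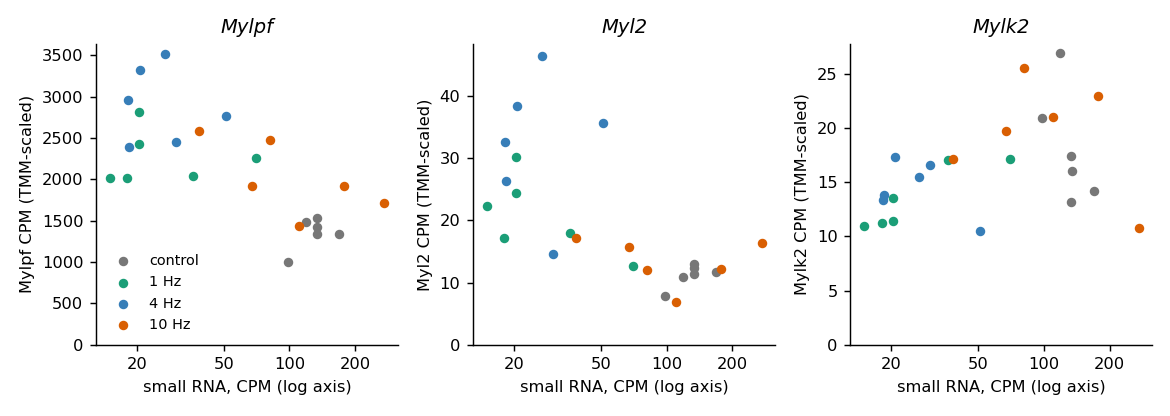
CPM of Mylpf, Myl2, and Mylk2 in each library against the summed CPM of small RNAs without a poly(A) tail, on a log axis, colored by condition. Control libraries, at 98.4 to 169 CPM of small RNA, do not overlap those of 1 Hz (15.03 to 70.2) or 4 Hz (18.3 to 51.1), whereas 10 Hz libraries spread from 38.4 to 272.

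Between frequencies, 4 Hz against 1 Hz counted 0 of 9 members, where 3% of all genes were counted. Myl1 was past the adjusted p but under the fold threshold (log2 fold change 0.32, SE 0.10, adjusted p = 0.0371), where 12.3% of all genes passed the adjusted p alone. Libraries overlapped for all 9 (5.7% of all genes did not overlap). Myl2 (0.61, interval 0.17 to 1.06, adjusted p = 0.062) and Mylpf (0.36, interval 0.09 to 0.63, adjusted p = 0.0698) missed the adjusted p. Myl2 was counted with DESeq2 (0.63, adjusted p = 0.0350), with no filter (0.61), with a minimum of 5 CPM (0.64), without 1 Hz replicate 6 (0.75), 4 Hz replicate 2 (0.77), or 10 Hz replicate 3 (0.62), and with the replicate block (0.61, adjusted p = 0.0462). Mylk was -0.17 (interval -0.56 to 0.22), and on the TPM scale its sign turned to 0.14 to 0.16. The others were Myl9 (0.29, interval -0.27 to 0.85), Myl6b (0.25, interval -0.03 to 0.52), Myl4 (0.12, interval -0.12 to 0.36), Mylk2 (0.12, interval -0.26 to 0.50), and Myl6 (0.09, interval -0.09 to 0.27).

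At 10 Hz against 4 Hz, 5 members fell and 0 rose (5.64% of all genes lower, 11% either way). Myl2 fell to 0.41-fold (log2 fold change -1.29, SE 0.22, adjusted p = 0.00036), Myl6b was -0.66 (SE 0.14, adjusted p = 0.00142), Myl1 -0.64 (SE 0.10, adjusted p = 0.000173), Mylk -0.55 (SE 0.20, adjusted p = 0.044), and Mylpf -0.53 (SE 0.13, adjusted p = 0.00529). For Myl1 all 6 of the 10 Hz libraries were below all 4 Hz libraries, which made it the 1 member without overlap (6.2% of all genes). Myl4 (-0.30, interval -0.54 to -0.06, adjusted p = 0.065) and Mylk2 (0.43, interval 0.06 to 0.80, adjusted p = 0.0821) missed the adjusted p, as did Myl9 (-0.54, interval -1.11 to 0.02, adjusted p = 0.157) and Myl6 (-0.06, interval -0.24 to 0.12). The Mylk call was lost without any of 4 Hz replicates 1, 3, 5, or 6 or 10 Hz replicates 1, 3, 4, or 6 (-0.44 to -0.56, with an edgeR adjusted p of 0.0577 to 0.123), and also with no filter, scaling by total count, TPM, or the 12 libraries compared. The Mylpf call was lost on the fold threshold without 4 Hz replicate 1 or 6 or 10 Hz replicate 2 or 3 (-0.45 to -0.49). It was also lost with scaling by total count (-0.46) and on the TPM scale (-0.44). There the median of all genes was 0.07 with scaling by total count and 0.08 to 0.09 in the filtered TPM fits. Mylk2 was counted without 10 Hz replicate 2 (0.55).

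At 10 Hz against 1 Hz, 2 members fell and 1 rose (8.49% and 9.45% of all genes, 17.9% either way), and 0 members were without overlap (13.2%). Myl2 fell (log2 fold change -0.67, SE 0.23, adjusted p = 0.0224), as did Mylk (-0.72, SE 0.20, adjusted p = 0.00595), while Mylk2 rose (0.56, SE 0.18, adjusted p = 0.0198). Myl1 (-0.32, adjusted p = 0.0163) and Myl6b (-0.41, adjusted p = 0.0196) passed the adjusted p alone, as 36.3% of all genes did. Mylpf was -0.17 (interval -0.44 to 0.10), Myl4 -0.17 (interval -0.41 to 0.07), Myl9 -0.25 (interval -0.83 to 0.33), and Myl6 0.03 (interval -0.15 to 0.20). The Myl2 call was lost without 1 Hz replicate 6 or 10 Hz replicate 3 (-0.54 and -0.53), and the Mylk2 call without 1 Hz replicate 3 or 10 Hz replicate 1 or 4 (0.49, 0.50, and 0.47). On the TPM scale Mylk (-0.29 and -0.48 with pseudocounts of 1 and 0.1) and Mylk2 (0.41 and 0.45) were not counted, nor was Myl2 without the filter (-0.67, adjusted p = 0.0757). With the covariate, 0 members were counted here (1.85% of all genes), at 4 Hz against 1 Hz (3.09%), and at 10 Hz against 4 Hz (0% of all genes).

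The makeup of the light chain pool was described by TPM share in each library. Mylpf was 99.0, 98.9, 98.7, and 99.2% of Mylpf plus Myl2 in control and at 1, 4, and 10 Hz, so that the fast form made up nearly all of this pair in each condition. The nonmuscle regulatory chains Myl12a (847 TPM in control) and Myl12b (261 TPM) lie outside the pair. Among the sarcomeric essential chains (Myl1, Myl4, Myl6b, and Myl3), Myl1 held 77.2 ± 2.35% in control, 76.7 ± 1.92% at 1 Hz, 78.9 ± 1.71% at 4 Hz, and 75.1 ± 1.19% at 10 Hz (SD, n = 6), and Myl4 held 19.6, 20.1, 18.04, and 21.9%. These ranges overlapped between control and each frequency. Myl6 went from 14.0 ± 0.847% of the 8 member chains in control to 9.96 ± 0.770% at 1 Hz, 8.43 ± 0.869% at 4 Hz, and 11.8 ± 2.13% at 10 Hz. Its 1 Hz (9.14 to 11.3%) and 4 Hz (7.43 to 10.1%) libraries were all below control (12.4 to 14.9%). Mylpf per Myl1 was 0.768 ± 0.0875 in control, 0.849 ± 0.0660 at 1 Hz, 0.873 ± 0.0510 at 4 Hz, and 0.967 ± 0.0783 at 10 Hz, where the 10 Hz libraries (0.878 to 1.08) were above those of control (0.640 to 0.877) by a narrow margin. As a ratio of CPM the ranges overlapped (0.886 to 1.21 at 10 Hz and 0.705 to 0.943 in control).

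Within the kinases, Mylk made up 8.97 ± 2.90% of Mylk plus Mylk2 TPM in control, 21.1 ± 5.77% at 1 Hz, 24.4 ± 11.4% at 4 Hz, and 13.2 ± 9.07% at 10 Hz. Control (4.38 to 12.04%) overlapped 4 Hz (9.89 to 42.1%) and 10 Hz (5.89 to 30.9%), and met 1 Hz (12.03 to 26.3%) at its upper end. As a share of CPM, control (11.2 to 24.4%) lay below 1 Hz (27.4 to 49.4%). On that scale control still overlapped 4 Hz (23.2 to 48.1%) and 10 Hz (14.2 to 39.7%). Mylk2 stayed the larger of this pair on average in all conditions. Mylk4, a kinase of the same family, lies outside the pair. Its mean TPM was 7.10 in control, 11.9 at 1 Hz, 11.3 at 4 Hz, and 11.3 at 10 Hz. That of Mylk2 was 9.45, 6.76, 6.61, and 9.43.

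**Figure D5:**
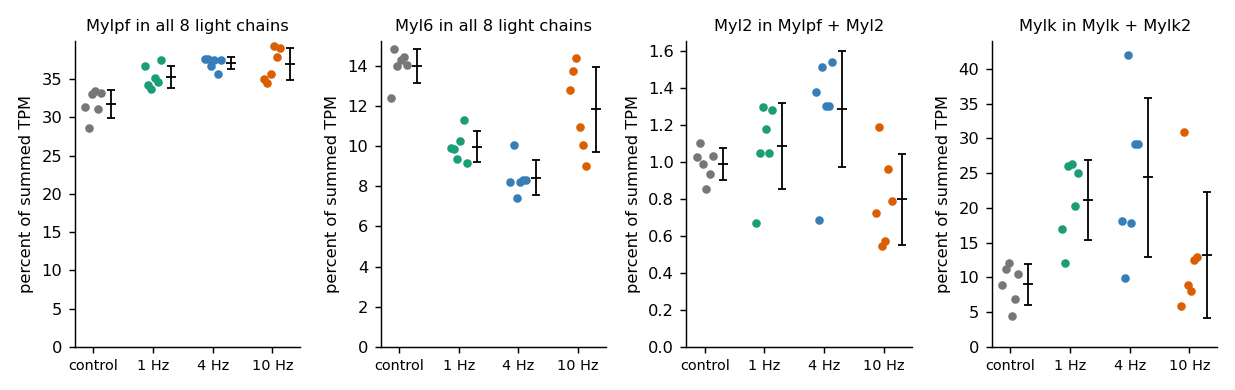
Share of Mylpf and of Myl6 in the summed TPM of the 8 member light chains, of Myl2 in Mylpf plus Myl2, and of Mylk in both kinases, per library (points) with mean and SD (n = 6), axes from 0. Myl6 control libraries (12.4 to 14.9%) lie above all 1 Hz and 4 Hz libraries, and Myl2 stays near 1% of the regulatory pair.

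Over the 24 libraries, members were compared with other genes by Pearson r of log2 CPM, given as a description of libraries that share conditions and depth. The genes most like Mylpf were Tnnc2 (r 0.988), Tnnc1 (0.986), and Eno3 (0.969), the fast and slow troponin C and the muscle enolase. Myl1 was most like Tnnt1 (0.977), Tnni2 (0.968), and Tpm2 (0.958), Myl6b most like Tpm2 (0.965), Acta1 (0.956), and Tpm1 (0.955), and Myl4 most like Mylpf (0.961), Tnnc2 (0.957), and Mybph (0.949). The slow chain Myl2 was closest to the fast chain Myl1 (0.948), followed by Tnnt1 (0.947) and Tnnt3 (0.946). Myl6 sat apart from these, nearest to the ribosomal protein genes Rps28 (0.905), Rps10 (0.899), and Rps15 (0.891). Mylk was nearest to Ryr1 (0.883), Pkp4 (0.864), and Fig4 (0.859), Mylk2 to Tcta (0.837), Usp20 (0.778), and Cirbp (0.741), and Myl9 to genes that included Slc16a11 (0.765) and Capg (0.747).

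Part of this likeness was present among libraries of 1 condition. With condition means removed, r was 0.919 between Myl4 and Mylpf, 0.875 between Myl1 and Myl2, and 0.964 between Mylpf and Tnnc2. For Mylk it went from 0.883 to 0.706 with Ryr1 and from 0.689 to 0.137 with Mylpf. The kinases had an r of -0.489 with each other over all libraries and -0.262 within conditions.

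The remaining light chains and kinases were Myl7, Myl10, Myl12a, Myl12b, Mylk3, and Mylk4. Of these 6 genes 4 were tested, and Mylk4, a kinase of the same family, was the 1 counted, as higher at 1 Hz (log2 fold change 0.80, SE 0.14, adjusted p = 9.45e-05), 4 Hz (0.91, SE 0.13, adjusted p = 1.11e-05), and 10 Hz (0.71, SE 0.14, adjusted p = 0.00298). Mylk4 was at 26.0 ± 6.64 CPM in control, 44.6 ± 3.67 at 1 Hz, 48.5 ± 2.72 at 4 Hz, and 42.1 ± 8.75 at 10 Hz (SD, n = 6), with 0 calls in the list between frequencies. The shares of all genes counted as higher were 9.34, 10.5, and 1.24% at 1, 4, and 10 Hz. Myl7, the atrial regulatory chain, was at 0 in all 24 libraries.

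Light chain phosphorylation is reversed by a phosphatase made of a catalytic subunit and a myosin-binding subunit, and other kinases and inhibitor proteins hold this phosphatase down. Of 14 genes of this phosphatase and its control, 13 were tested. Calls came to 2 of 13 at 1 Hz and 3 of 13 at 4 Hz, near the shares of all genes (18.3 and 20.1%). At 1 Hz 1 rose, Ppp1r12b, a myosin-binding subunit (log2 fold change 0.62, SE 0.11, adjusted p = 0.000166), and 1 fell, the catalytic subunit gene Ppp1cc (-0.52, SE 0.08, adjusted p = 2.73e-05). At 4 Hz 2 rose, the citron kinase gene Cit (1.02, SE 0.34, adjusted p = 0.0180) and Ppp1r14c (0.61, SE 0.12, adjusted p = 0.00031), and 1 fell, Rock1 (-0.52, SE 0.15, adjusted p = 0.00854). At 10 Hz 0 were counted, and against 1 Hz Ppp1r12b fell (-0.62, SE 0.11, adjusted p = 0.000115). Of the 3 calmodulin genes, 0 were counted in the 6 comparisons.

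Sarcomeric myosin heavy chains, which bind these light chains, were read in the same fit. Of 9 genes 8 were tested, and 8 rose at 1 Hz and 8 at 4 Hz (9.34 and 10.5% of all genes higher). Their median log2 fold changes were 1.21 and 1.10. At 10 Hz 1 rose, the embryonic gene Myh3 (0.82, SE 0.19, adjusted p = 0.0123), where 1.24% of all genes were higher. Against 1 Hz and against 4 Hz, 7 of the 8 fell at 10 Hz (8.49 and 5.64% of all genes lower). Of 4 smooth muscle and nonmuscle heavy chains 3 were tested, of which Myh14 rose at 1 Hz (0.60, SE 0.22, adjusted p = 0.0321), and Myh10 (-0.59) and Myh14 (-0.68) fell at 10 Hz against 1 Hz.

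Markers of other cell types were read beside these results. Smooth muscle markers (6 genes, 4 tested) summed to 338 to 510 CPM in control, 553 to 805 at 1 Hz, 512 to 838 at 4 Hz, and 326 to 624 at 10 Hz, with 2 counted as higher at 1 Hz and 2 at 4 Hz (Acta2 and Tagln, which immature skeletal muscle also expresses). Smtn, the 1 smooth muscle marker counted as lower than control, fell at 4 Hz (log2 fold change -0.53, SE 0.12) and 10 Hz (-0.60, SE 0.12). The smooth muscle defining gene Myh11 was at or below 1.23 CPM in every library. Cardiomyocyte markers (6 genes, 2 tested) summed to 21.1 to 30.1 CPM in control, 33.0 to 69.0 at 1 Hz, 29.9 to 70.3 at 4 Hz, and 21.4 to 32.2 at 10 Hz, mostly from Myh6, which was counted as higher at 1 and 4 Hz. Nppb was lower at 1 Hz (-1.25, SE 0.40), while Nppa and Myl7 were at 0 in all 24 libraries. Fibroblast markers (5 genes, 4 tested) summed to 264 to 578 CPM in control, 422 to 659 at 1 Hz, 311 to 582 at 4 Hz, and 278 to 382 at 10 Hz, with Col3a1 higher at 1 Hz (0.59, SE 0.18) and Dcn lower at 4 Hz (-0.59, SE 0.17). Markers of undifferentiated or cycling myoblasts (5 genes, 5 tested) summed to 22.8 to 47.5 CPM in control, 26.2 to 39.5 at 1 Hz, 23.0 to 48.0 at 4 Hz, and 33.2 to 46.6 at 10 Hz. Of these Pax7 rose at 1 Hz (0.99, SE 0.36) and 4 Hz (1.04, SE 0.36), Mki67 (1.28, SE 0.46) and Top2a (0.69, SE 0.23) rose at 4 Hz, and Myf5 fell at 4 Hz (-0.61, SE 0.18), with 0 of 5 counted at 10 Hz against control. Fiber markers (8 genes) summed to 6487 to 8055 CPM in control, 9106 to 12450 at 1 Hz, 9169 to 14240 at 4 Hz, and 6649 to 9567 at 10 Hz. Those counted as higher came to 4, 5, and 1 at 1, 4, and 10 Hz. Of all genes, 9.34, 10.5, and 1.24% were counted as higher at these frequencies. The part of these marker levels in the changes of Mylk, Myl4, and Myl2 was not tested.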

How the data were processed

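RNA was measured in 24 libraries, grouped and numbered by sample title. Libraries were made by the authors from poly(A)-selected RNA or, for samples of low input that the labels do not name, by ribodepletion, and sequenced as paired reads on a Singular G4. They processed the reads against GRCm39 with STAR and Salmon within nf-core/rnaseq. Neither the annotation release nor the strand setting is given in the sources used here. One deposited table held estimated counts (expected counts) that the authors obtained with Salmon and did not normalize, and the other held TPM, which the authors scaled to a fixed sum per library. The submitters' processing notes also name BWA 0.7.12-r1039 and bedtools 2.25.0.

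Counts were rounded, filtered with filterByExpr by condition, scaled by TMM, and tested with the quasi-likelihood test of edgeR 4.0.16 (limma 3.58.1, R 4.3.3), with all 24 libraries in 1 fit and condition as the sole factor. P-values were adjusted by Benjamini-Hochberg over 13318 genes. A call needed both an adjusted p under 0.05 and a log2 fold change beyond 0.5 in either direction. Intervals are 95% and take in the spread between libraries together with the counting error. The latter depends on the totals of 4.09 to 15.2 M counts per library. CPM used TMM-scaled library sizes. Levels of different genes were compared in TPM. The tests were checked on simulated data.

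All 10 members are named in each comparison, called or not. From related lists, up to 4 called genes of largest change are named, and by Pearson r the 3 genes most like each member among those with at least 10 CPM on average, of which 1 for Myl9 is not reported here. Members and lists were chosen with earlier results of these data known. Alternatives were scaling by the size factors of DESeq2 or by total count, a fit without any filter, at least 5 CPM on average, DESeq2 1.42.0, limma on TPM with a pseudocount of 1 or 0.1 (mean TPM of 1 or more) and of 1 with no such filter, the 12 libraries compared, a replicate block, the log2 small RNA share as covariate, a call on adjusted p only, and omission of single libraries. With a pseudocount, changes of low genes read too small. Positions came from GENCODE M39, which may not be the authors' release, and near copies from BLAST 2.17.0 (at least 90% identity over 150 bases).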

Additional observations from a re-analysis of the deposited data

How the results depend on the processing

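The count of members at 1 Hz was 6 or 7 in 24 fits that each left out 1 library, 6 in all such fits at 4 Hz, 0 or 1 at 10 Hz and at 4 Hz against 1 Hz, 2 to 3 at 10 Hz against 1 Hz, and 3 to 5 at 10 Hz against 4 Hz. With the small RNA covariate the counts were 0 at 1 Hz, 2 at 4 Hz, 0 at 10 Hz against 1 Hz, and 0 at 10 Hz against 4 Hz. The limma fits on TPM gave 0 at 10 Hz, 1 (0 without the filter) at 10 Hz against 1 Hz, and 3 at 10 Hz against 4 Hz, where scaling by total count also gave 3. Over all genes, limma with a pseudocount of 1 and the filter called 234, 1803, and 1034 of 13627 in these comparisons. The main fit called 248, 2390, and 1460 of 13318, and scaling by total count called 1524 of 13318 at 10 Hz against 4 Hz. At 4 Hz against 1 Hz the count was 1 with no filter, a minimum of 5 CPM, DESeq2, or the adjusted p alone, which gave 2 at 10 Hz and 5 at 10 Hz against 1 Hz. At 4 Hz against 1 Hz the fit with no filter called 362 of 31472 genes, the minimum of 5 CPM 347 of 10577, and DESeq2 419 of 13318. The main fit called 399 of 13318 there. The cause of the differences in member counts was not tested.

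Of 36 same-numbered pairs, 10 had a correlation of deviations over 0.1 (range -0.184 to 0.362). Among libraries of the other conditions, 10 of 24 libraries were closest to one of their own number. How many such matches unrelated numbers would give was not computed, so whether replicate numbers pair the libraries was not tested. The replicate block gave 6, 6, 1, 1, 3, and 5 members, in the order 1, 4, and 10 Hz against control, 4 against 1 Hz, and 10 against 1 and 4 Hz, and Myl2 at 4 Hz against 1 Hz was the call that differed. Over all 13318 genes the block fit called 2430, 2668, 266, 428, 2374, and 1468 in that order.

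Sign changes occurred for values that were called in neither fit. On the TPM scale (limma with pseudocounts of 1 and 0.1) these were Myl6 at 4 Hz (-0.0776 and -0.0777) and 10 Hz (-0.0361 for both), Mylk2 at 10 Hz (-0.00105 and -0.00242), for 4 Hz against 1 Hz Myl4 (-0.00899 and -0.00900), Myl6 (-0.0862 and -0.0863), Mylk (0.14 and 0.16), and Mylk2 (-0.0207 and -0.0228), and Myl6 for 10 Hz against 1 Hz (-0.0446 and -0.0447) and 4 Hz (0.0416 for both). Values without the filter equal those with a pseudocount of 1. Scaling by total count gave -0.0019 for Myl9 at 10 Hz and 0.000526 for Myl6 at 10 Hz against 4 Hz. With the covariate, 10 Hz against 1 Hz gave -0.0270 for Myl6 and 0.00928 for Mylpf. Over the fits without 1 library, Myl9 at 10 Hz ranged from -0.0919 to 0.196 and Myl6 at 10 Hz against 1 Hz from -0.0130 to 0.0702. Myl3, Myl9, and Mylk had few counts, so small changes in them were not resolved at this depth.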
